A study of Mus musculus with 6 samples.

Results

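Regulators of G protein signalling, the RGS proteins, bind the active, GTP-bound α subunits of heterotrimeric G proteins and speed up their GTP hydrolysis, which ends the signal of the receptor. The small members of the family act on α subunits of the Gi and Gq classes. Gα12 and Gα13 are instead the partners of guanine nucleotide exchange factors that carry an RGS homology domain. In liver, Rgs16 is known from hepatocytes, where its RNA follows feeding, fasting and the daily clock, while other members are known mainly from blood, immune and vessel wall cells.

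The 10 RGS genes described here (Rgs1, Rgs2, Rgs3, Rgs4, Rgs5, Rgs10, Rgs14, Rgs16, Rgs18 and Rgs19) were taken by name, among 20284 named genes on the array. Their probes, 16 of 55681, were found through the RefSeq accession that each probe carries. The arrays measured liver RNA from 3 Gα12 KO and 3 WT male mice, aged 8 weeks, kept on chow and fasted overnight, of a mixed C57BL/6 and 129/Sv strain with a 95% C57BL/6 background. The KO mice lack Gα12, which the gene Gna12 encodes; how and where the gene was deleted is not stated by the labels. Each array was taken as 1 animal, since the labels describe 3 mice per group. The comparison asked which liver transcripts differ without Gα12.

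Each level is the log2 of a probe's signal after subtraction of that array's 75th percentile, and differences are KO minus WT on that log2 scale. A probe was tested when it stood well above background, as the scanner software marks it, on at least 3 of the 6 arrays. All 8 hepatocyte markers checked, among them Alb and Apoa1, passed this filter. The probe of Gna12 was not well above background in any KO liver and in only 1 WT liver, replicate 3, and its difference of -1.36 (SE 0.91) in limma's fit over all probes had an adjusted p of 0.317, so that it checks the labels only weakly. All arrays lay on 1 slide, with the KO arrays in row 2 and the WT arrays in row 1, so that row and genotype cannot be told apart. WT livers 1 and 2 stood apart: their correlation across probes with the KO livers was 0.869 to 0.929, against 0.966 to 0.982 for WT liver 3. The median difference over all 12297 tested genes was -0.49, and each RGS difference is therefore also given relative to it.

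Upstream sequences of RefSeq (build GRCm38.p6) were at hand for 7 of the 10 genes. Those of Rgs10, Rgs16 and Rgs2 are shown, as the genes above background in every liver that are measured by a single usable probe and had the most negative KO minus WT differences. Each is the 250 bases before the gene's start, at chr7:128418173-128418422 on the minus strand for Rgs10, chr1:153740103-153740352 on the plus strand for Rgs16 and chr1:144004150-144004399 on the minus strand for Rgs2. Capitals mark TGACG, the core of the cAMP response element (CRE), on either strand.
Rgs10: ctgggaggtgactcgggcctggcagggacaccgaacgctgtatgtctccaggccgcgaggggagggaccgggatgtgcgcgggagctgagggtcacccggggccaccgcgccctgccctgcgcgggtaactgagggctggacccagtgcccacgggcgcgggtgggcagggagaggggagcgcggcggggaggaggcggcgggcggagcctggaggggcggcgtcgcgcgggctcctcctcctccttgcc
Rgs16: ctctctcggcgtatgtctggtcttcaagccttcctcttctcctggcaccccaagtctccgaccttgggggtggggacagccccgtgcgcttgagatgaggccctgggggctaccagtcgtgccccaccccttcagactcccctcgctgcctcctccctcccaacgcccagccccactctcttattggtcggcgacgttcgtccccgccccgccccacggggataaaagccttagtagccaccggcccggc
Rgs2: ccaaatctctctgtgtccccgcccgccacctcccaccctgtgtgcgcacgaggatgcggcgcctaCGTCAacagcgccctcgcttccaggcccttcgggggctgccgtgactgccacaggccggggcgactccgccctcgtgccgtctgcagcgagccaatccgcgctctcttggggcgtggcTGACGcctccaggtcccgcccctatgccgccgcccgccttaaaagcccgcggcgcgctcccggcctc
The Rgs2 window held TGACG at 2 places, as did that of Rgs4, while the windows of Rgs3, Rgs5, Rgs10, Rgs16 and Rgs19 did not hold it. Over 32851 such windows of all genes, 17.8% held TGACG. The full CRE (TGACGTCA, which contains TGACG) and the E-box CACGTG, the motif of clock factors, were found in none of the RGS windows, against 1.55% and 6.02% of all windows. A match or its absence describes these letters only.

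Of the 10 genes, 8 had at least 1 probe past the filter, and none of the 8 passed limma's test (adjusted p over all 23132 probes). By the same test 0% of genes were called on the whole array, while at an unadjusted p below 0.05 there were 2038 lower and 490 higher of 12297 genes. At that unadjusted level 3 of the 8 RGS genes, Rgs1, Rgs10 and Rgs16, were lower in KO livers and 0 were higher, against 16.6% and 3.98% of all genes. The median RGS difference was -1.09, and 6 of the 8 lay below the median of all genes. All 8 differences were below 0, as were 72.3% of those of all genes. In 4 of the 8 every KO liver lay below every WT liver and in 0 above, against 21.1% and 4.42% of all genes. WT liver 3 alone lay above every KO liver in 4 of the 8, the same ones (Rgs1, Rgs5, Rgs10 and Rgs16), against 32.6% of all genes. The filter could be passed through the WT livers alone, as it was by Rgs1, so these counts describe the measured genes and are no test of the family. In all 8 the highest of the 6 levels was in WT liver 1 or 2, as it was in 8482 of 12297 genes.

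**Figure D1:**
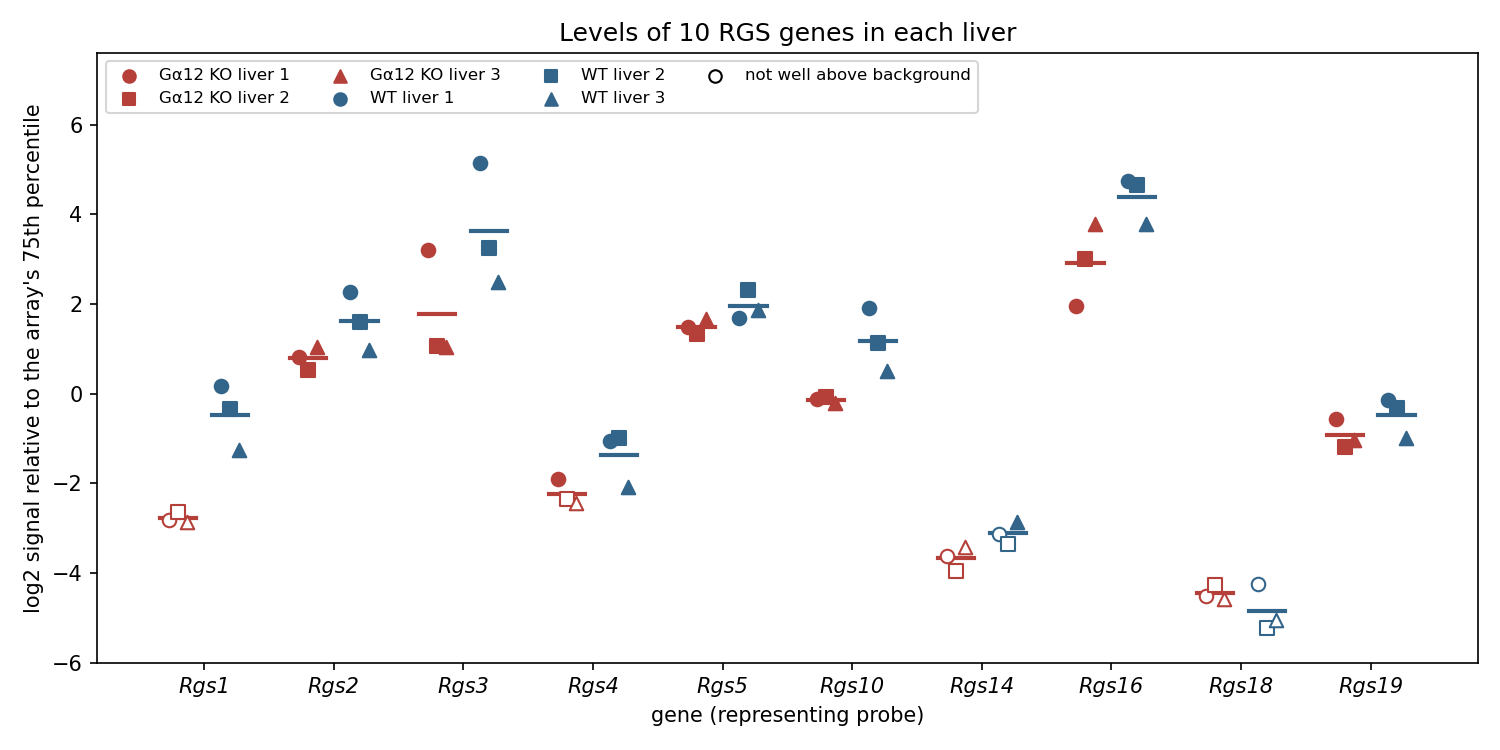
Log2 level of the representing probe of each RGS gene (y axis, relative to the array's 75th percentile) in every Gα12 KO liver (red, left) and WT liver (blue, right). Bars are group means and open symbols are signals not well above background. Rgs1 is open in all 3 KO livers and filled in all 3 WT livers, and Rgs18 is open in all 6.

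Rgs1, which restrains the response of lymphocytes to chemokines, showed the widest separation of the family. Its probe read -2.81, -2.65 and -2.86 in the KO livers, where it was not well above background, against 0.17, -0.33 and -1.25 in the WT livers, where it was. Every KO liver thus lay below every WT liver, and WT liver 3 lay nearest to the KO livers. The mark for well above background sat higher on KO arrays, where the lowest spots so marked were at -2.73, -2.48 and -2.79, than on WT arrays, where they were at -3.07, -3.42 and -3.88. The KO readings of Rgs1 lay above those WT values, and for every gene such marks are not on the same footing in both groups. The mean level was at least 4.59-fold lower in KO livers. For each KO array this bound takes the higher of the array's own signal and the lowest spot marked well above background. That spot is not a limit of detection. The bound does not allow for the spread among livers, and the interval given next reaches smaller changes. The fitted difference was -2.30 (SE 0.42, 95% interval -3.27 to -1.33), or -1.81 relative to all genes. Its limma adjusted p was 0.205. After another background correction (normexp) it was -1.30, so the bound holds for this scaling only. Without WT liver 3 the adjusted p was 0.00358, in a fit that called 13123 of 23132 probes, and without WT livers 1 and 2 together the difference was -1.52 (adjusted p = 0.561).

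Markers of the cells that Rgs1 is known from were set beside it. Of 10 lymphocyte markers, 4 had a tested probe. Cd2, a T and natural killer cell marker, read -2.46, -4.76 and -3.07 in KO livers, above background in only 1 of them, and -1.40, -1.92 and -2.57 in WT livers. The groups overlapped (difference -1.47, SE 0.62, limma adjusted p = 0.237). A second Cd2 probe, not kept by the filter, differed by 0.68 (SE 0.27). Of the 4 tested genes, 3 differed below 0 and 1, Cd3e, above 0. Cd3e, above background in all livers, read 2.26, 2.68 and 1.97 in KO livers and 2.41, 1.72 and 1.84 in WT livers (difference 0.32, SE 0.36). The summed linear level of the list ranged from 4.50 to 8.50 in KO livers and from 4.19 to 6.47 in WT livers, and Ncr1, a natural killer cell marker, was above background on no array. The part of these cells in the Rgs1 difference was not tested. In whole liver, fewer cells of a type and less RNA per cell cannot be told apart.

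Rgs10, a Gi regulator abundant in macrophages, microglia and platelets, varied little among KO livers, as did the array as a whole. It read -0.11, -0.083 and -0.20 there, against 1.92, 1.13 and 0.50 in WT livers, and the groups did not overlap. The SD was 0.060 in KO livers and 0.71 in WT livers (n = 3 each), beside medians over all genes of 0.19 in KO livers and 0.65 in WT livers. The difference was -1.31 (SE 0.41; 95% interval -2.28 to -0.35), which is -0.82 relative to all genes, and the limma adjusted p was 0.235. Without WT liver 3 the adjusted p was 0.00737, and without WT livers 1 and 2 the difference was -0.63 (adjusted p = 0.662).

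Markers of macrophages and platelets stood beside Rgs10 as follows. The 7 measured of 8 macrophage and Kupffer cell markers had 0 members past an unadjusted p of 0.05, where all genes had 16.6% lower and 3.98% higher. Their median was -0.54, close to that of all genes, with sums of 81.2 to 99.1 in KO livers and 77.4 to 182 in WT livers. Of 8 platelet markers only 2 had a tested probe. Pf4, a platelet chemokine, read -0.27, -0.54 and 0.093 in KO livers and 1.46, 0.75 and 0.19 in WT livers, a difference of -1.04 (SE 0.41, limma adjusted p = 0.235). Clec1b, the other tested marker, read 1.64, 1.40 and 1.77 in KO livers and 2.95, 2.47 and 1.71 in WT livers, with WT liver 3 within the KO range. Its difference was -0.77 (SE 0.39), and its other tested probes differed by 0.052 (SE 0.32) and -0.95 (SE 0.52). The platelet list summed to 3.63 to 4.84 in KO livers and 4.90 to 11.1 in WT livers, mostly from Clec1b. That sum thus describes Clec1b more than platelets. Gp1ba was above background on no array. The part of either cell type in the Rgs10 difference was not tested.

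Rgs16, the hepatocyte member, varied more among KO livers than among WT livers. It read 1.97, 3.00 and 3.78 in KO livers, against 4.73, 4.65 and 3.79 in WT livers. KO liver 3 and WT liver 3 were thus almost level, and the groups, which did not overlap here, did overlap when the median of the tested probes was set to 0. The means were 2.92 ± 0.91 in KO livers and 4.39 ± 0.52 in WT livers (SD, n = 3 each). The difference was -1.48 (SE 0.52; 95% interval -2.69 to -0.26), or -0.98 relative to all genes, with a limma adjusted p of 0.235. Without WT liver 3 the adjusted p was 0.0349. Without WT livers 1 and 2 the difference was -0.88 (adjusted p = 0.757).

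Genes tied to fasting, feeding and the clock were set beside Rgs16. Among 12 targets and mediators of glucagon and of ChREBP, the carbohydrate-sensing transcription factor, 3 were lower in KO livers at an unadjusted p below 0.05 (Fgf21, Mlxipl and Nr4a1), 0 were higher, and the median was -0.62. Over all genes the shares at that level were 16.6% lower and 3.98% higher, and the median was -0.49. Mlxipl, which encodes ChREBP, read 5.17, 4.96 and 5.60 in KO livers and 7.64, 6.89 and 5.54 in WT livers, so that WT liver 3 lay among the KO livers. Nr4a1, an orphan nuclear receptor, read 0.15, -0.91 and -0.39 in KO livers and 2.66, 3.51 and 2.47 in WT livers, and Fgf21, a fasting hormone, read -1.63, -1.91 and -4.09 in KO livers and -0.57, -0.94 and -1.08 in WT livers. For these 2 genes every KO liver lay below every WT liver, WT liver 3 included. Fgf21 was not well above background in KO liver 3. Of 9 measured clock genes only Per1 passed that level, with a difference of 1.91 (SE 0.78), and like Mlxipl it had WT liver 3, at 2.67, within the KO range of 2.30 to 3.00. None of these genes passed limma's test over all probes. The part of feeding state or time of day in the Rgs16 difference was not tested.

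**Figure D2:**
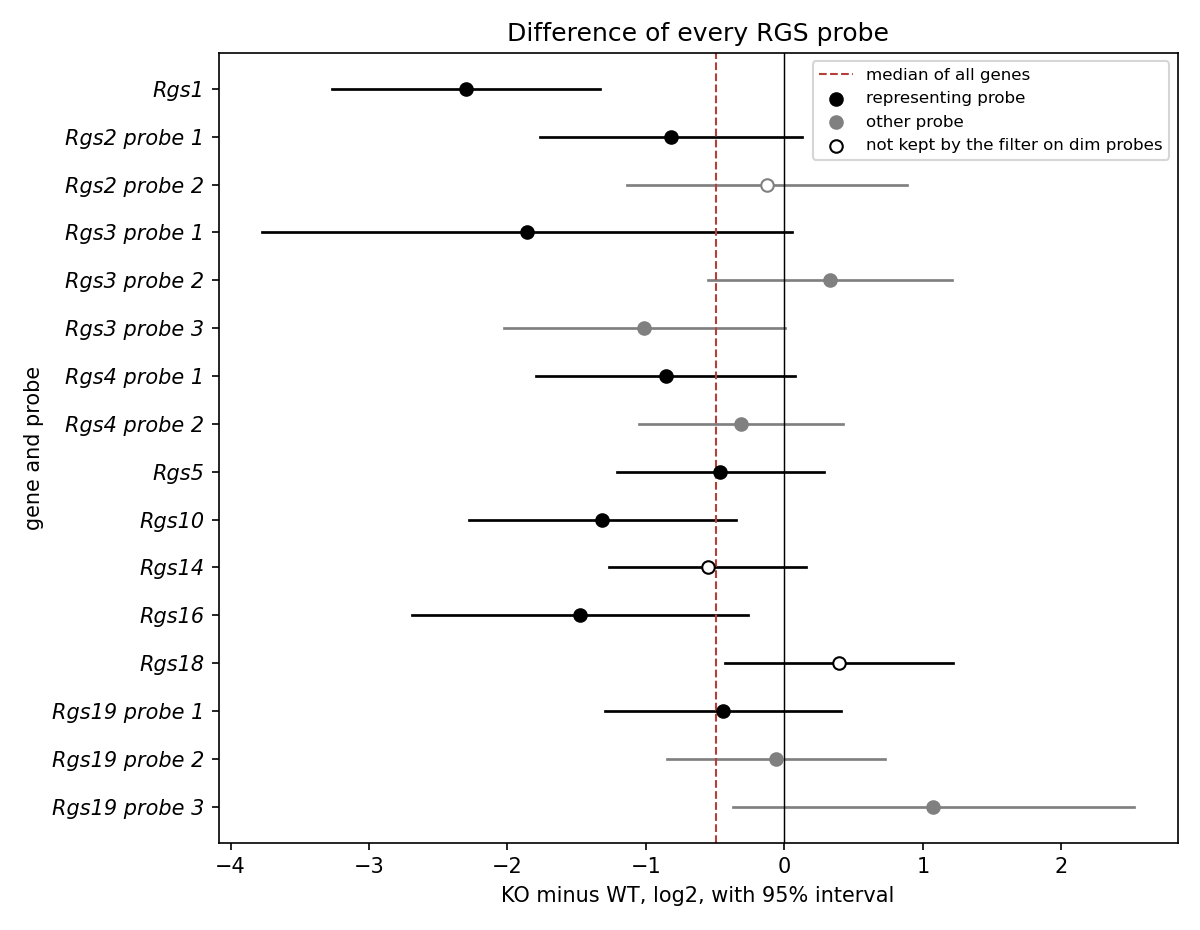
KO minus WT (x axis, log2) with its 95% interval from limma for all 16 RGS probes (y axis). Filled black points are the representing probes, grey points other probes and open points probes not kept by the filter. The dashed line is the median of all genes at -0.49. The intervals of Rgs1, Rgs10 and Rgs16 lie below 0, and those of the remaining 13 probes include it.

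Rgs2, which acts chiefly on Gq and lowers the response of vessels to constrictors, read 0.81, 0.54 and 1.03 in KO livers and 2.26, 1.60 and 0.97 in WT livers. WT liver 3 lay within the KO range, and WT livers 1 and 2 above it. The difference of -0.82 (SE 0.41; 95% interval -1.76 to 0.13) did not pass limma's test (adjusted p = 0.250); without WT liver 3 it was -1.14 (adjusted p = 0.0209) and without WT livers 1 and 2 it was -0.18. The other probe of the gene was above background in no liver. Rgs2 is also known to be quickly induced by stimuli that raise immediate early genes. The 12 immediate early genes summed to 6.12 to 13.4 in KO livers and 20.1 to 40.1 in WT livers, mostly from Egr1, Nr4a1, Jun and Dusp1. Of the 9 measured, 4 were lower at an unadjusted p below 0.05 (Egr1, Fos, Klf4 and Nr4a1), against 16.6% of all genes. In 7 of the 9 the difference was below 0 and in 2 above, Fosb (0.68, SE 0.33) and Ier2 (1.79, SE 1.14). The relation of these genes to Rgs2 was not tested.

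Rgs4, best known from brain and heart, has 2 probes. The representing probe read -1.91, -2.35 and -2.43 in KO livers, with only KO liver 1 above background, and -1.05, -0.98 and -2.08 in WT livers. WT liver 3 again lay within the KO range. The difference was -0.86 (SE 0.40, limma adjusted p = 0.241), with an adjusted p of 0.0100 without WT liver 3 and a difference of -0.15 without WT livers 1 and 2. The second probe, above background in all 6 livers, differed by -0.31 (SE 0.32), which lies 0.18 above the median of all genes.

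Rgs5, a marker of pericytes and vessel wall muscle, read 1.48, 1.33 and 1.66 in KO livers and 1.70, 2.31 and 1.86 in WT livers. The groups were apart by 0.039, and the difference of -0.46 (SE 0.32, limma adjusted p = 0.342) lay 0.030 above the median of all genes, close to the shift of the array as a whole. With the 75th percentile taken over probes above background in all livers, its difference was 0.011. The pericyte and smooth muscle markers had a median of -0.38. Of 5 measured, 1, the smooth muscle gene Cnn1, was lower at an unadjusted p below 0.05, against 16.6% of all genes. The sum of these markers, 238 to 315 in KO livers and 121 to 502 in WT livers, was nearly all 1 gene, Mcam, which read 7.88, 8.28 and 7.89 in KO livers and 8.78, 8.95 and 6.86 in WT livers. Acta2, smooth muscle actin, read 0.28, 0.80 and 0.87 in KO livers and 1.01, 0.93 and 1.15 in WT livers. Its difference of -0.38 (SE 0.32) lay 0.11 above the median of all genes. For Acta2 and Cnn1, as for Rgs5 and 21.1% of all genes, every KO liver lay below every WT liver. For the other tested markers, Mcam, Notch3 and Pdgfrb, the groups overlapped. Notch3 differed by 0.64 (SE 1.25) and Pdgfrb by -0.90 (SE 0.55). The part of these markers' cells in the Rgs5 difference was not tested.

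For Rgs3 and Rgs19 the probes did not agree. Rgs3, which acts on Gi and Gq subunits, has 3 probes with 2 transcript accessions among them. The representing probe read 3.21, 1.06 and 1.04 in KO livers and 5.14, 3.24 and 2.49 in WT livers, and the groups overlapped through KO liver 1. Its difference was -1.86 (SE 0.82; 95% interval -3.77 to 0.058; limma adjusted p = 0.239). A second probe, with the same accession (NM_134257), differed by 0.33 (SE 0.38), and the third, of NM_019492, by -1.01 (SE 0.44, limma adjusted p = 0.238). With the mean over the 3 probes the Rgs3 difference was -0.85.

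Rgs19, a Gi regulator also called GAIP, has 3 probes of 1 accession. The representing probe read -0.57, -1.18 and -1.04 in KO livers and -0.14, -0.33 and -0.99 in WT livers, a difference of -0.44 (SE 0.37, limma adjusted p = 0.409). The second differed by -0.058 (SE 0.34). The third differed by 1.08 (SE 0.62): it read -1.77, -1.88 and -1.66 in KO livers and -3.63, -3.60 and -1.32 in WT livers, and was above background in WT liver 3 but not in WT livers 1 and 2. On that probe WT livers 1 and 2 were thus the low ones, and on the representing probe the high ones. With the mean over the probes the Rgs19 difference was 0.19. Such disagreement in sign occurred in 1180 of 2737 genes with several tested probes. The 7 probes of Gapdh spanned 9.58 and 7.79 log2 units in WT livers 1 and 2. They spanned 4.01 in WT liver 3 and 4.36 to 4.87 in KO livers. The probes of Rgs3 did not set WT livers 1 and 2 apart in this way, with spans of 4.90 and 3.48, against 3.56 in WT liver 3. The cause of these spans was not tested.

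**Figure D3:**
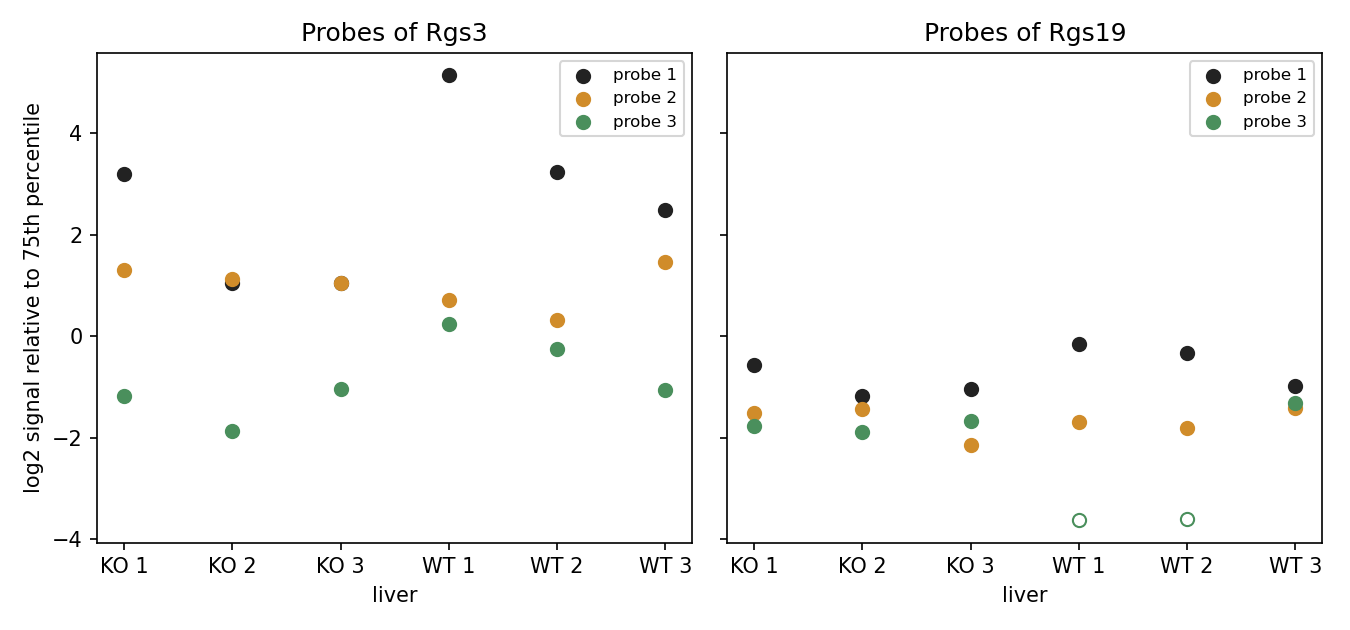
Log2 level (y axis, relative to the array's 75th percentile) of the 3 probes of Rgs3 (left) and of Rgs19 (right) in each Gα12 KO and WT liver (x axis). Open points are not well above background. Probe 3 of Rgs19 is open in WT livers 1 and 2, at -3.63 and -3.60, and filled in the other 4 livers.

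Neither remaining gene passed the filter. Rgs14, a scaffold that joins Gi and Ras signalling and is best known from brain, read -3.63, -3.95 and -3.43 in KO livers and -3.13, -3.35 and -2.87 in WT livers, above background in WT liver 3 alone. Rgs18, the platelet and megakaryocyte member, was above background in no liver, with -4.52, -4.26 and -4.58 in KO livers and -4.26, -5.23 and -5.06 in WT livers. No fold is given for either, and the arrays do not say that the transcripts were absent.

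In the RefSeq order of protein-coding genes Rgs2, Rgs13, Rgs1, Rgs21 and Rgs18 follow one another on chromosome 1, Rgs5 adjoins Rgs4 and Rgs8 adjoins Rgs16. Rgs13, which lies between Rgs1 and Rgs2, was above background in no liver, nor was Rgs8, the neighbour of Rgs16, on its representing probe. The differences of neighbouring genes were not tested against each other.

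The genes with the most similar pattern over the 6 livers were found by the root mean square difference between levels centred on each gene's own mean, among 12296 other genes. For Rgs1 these were Limch1 (0.086 log2 units), Pla2g7 (0.12) and Fanca (0.17). For Rgs10 they were Dennd2d (0.062), 3830406C13Rik (0.084) and Cldnd1 (0.089). For Rgs16 they were 4430402I18Rik (0.12), Ptpn13 (0.18) and Dynlrb2 (0.18). For Rgs2 they were Ttbk2 (0.023), Ripk3 (0.046) and Cep135 (0.054). For Rgs4 they were Usp38 (0.058), Lsm10 (0.061) and D630039A03Rik (0.065), for Rgs5 Slc38a1 (0.052), Dnajc8 (0.071) and Cnot2 (0.079), and for Rgs19 Irf8 (0.088), Hes2 (0.090) and Bbs5 (0.093). Rgs3 had no close match, with Pdzk1ip1 (0.42) nearest. Rgs1 itself was not well above background in KO livers, and Limch1 (-4.78, -4.48 and -4.82) and Fanca (-4.92, -4.61 and -4.94) lay near the floor of the processed signal there (-5.08, -4.82 and -5.14), so that these matches rest partly on the floor. The same holds in KO liver 1 for the 3 genes nearest to Rgs16, at -4.98 each.

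Among 13 other RGS family genes and anchors, 6 had a tested probe. On the representing probes only Rgs9, a retinal and striatal member, was lower at an unadjusted p below 0.05, against 16.6% of all genes. It read -4.94, -4.67 and -3.84 in KO livers, none above background, and -2.44, -3.02 and -3.66 in WT livers. This probe passed the filter through the WT livers alone. The other probes of Rgs9, not kept by the filter, differed by -0.57 (SE 0.45) and 0.098 (SE 0.72). Rgs12 read 0.93, 1.88 and 1.75 in KO livers and 2.96, 2.81 and 1.68 in WT livers, with WT liver 3 inside the KO range. Another tested probe of Rgs12 differed by -1.39 (SE 0.55), lower at that unadjusted level, though above background in no KO liver. A probe of Rgs12 not kept by the filter differed by 2.13 (SE 0.99), the opposite sign. Rgs20 lay the other way, with 3.21, 3.80 and 3.01 in KO livers and 1.93, 2.27 and 3.05 in WT livers (difference 0.93, SE 0.41, limma adjusted p = 0.239). The median of these 6 was -0.67.

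The proteins with an RGS homology domain include the direct effectors of Gα12. Arhgef1, Arhgef11 and Arhgef12, the guanine nucleotide exchange factors that Gα12 and Gα13 activate, differed by -0.47 (SE 0.46), -0.94 (SE 0.43) and -0.54 (SE 0.39), and none passed limma's test (adjusted p of 0.239 to 0.488). A second probe of Arhgef1, with the same accession, differed by 1.14 (SE 0.70), the opposite sign. On each representing probe, WT liver 3 lay within or below the KO range. Arhgef11 read 0.11, -0.037 and 0.16 in KO livers and 1.51, 1.39 and 0.16 in WT livers. Over the whole list of 14 genes, 12 were tested, of which Axin1, a scaffold of β-catenin destruction, and Grk5, a receptor kinase, were higher and the sorting nexins Snx13 and Snx14 lower at an unadjusted p below 0.05. Grk5 read 1.28, -0.46 and -0.16 in KO livers and -1.16, -0.89 and -1.63 in WT livers, a difference of 1.45 (SE 0.51, limma adjusted p = 0.235). The list's median was -0.33. Of the 9 tested α subunit genes, 1, Gnaz, was higher and 0 lower at that level on the representing probe, with a median of -0.67. Over all genes the shares at that level were 3.98% higher and 16.6% lower. The tested probes of Gna13 did not agree: the representing probe differed by -0.85 (SE 0.41). Another differed by -1.02 (SE 0.30), lower at that unadjusted level, and a further one by 1.13 (SE 0.71).

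**Figure D4:**
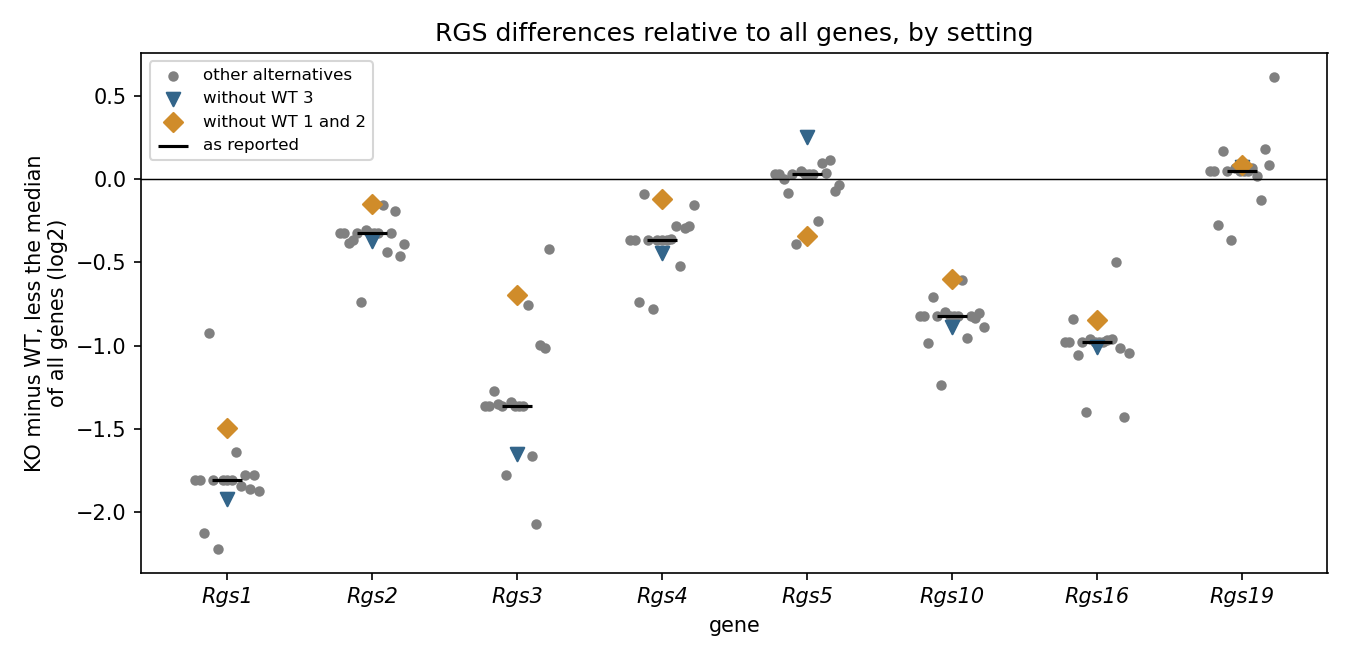
KO minus WT less the median of all genes (y axis, log2) for the 8 RGS genes with a tested probe (x axis). Values are of the representing probe, except in the alternative that takes the mean over probes. Black bars are the values as reported, blue triangles those without WT liver 3, orange diamonds those without WT livers 1 and 2, and grey points the other alternatives. Rgs1, Rgs10 and Rgs16 lie below 0 at every setting, between -2.22 and -0.50, as do Rgs2, Rgs3 and Rgs4, while Rgs5 and Rgs19 fall on both sides.

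Relative to all genes, Rgs1 lay between -2.22 and -0.93 over its 17 alternatives, Rgs10 between -1.24 and -0.60 and Rgs16 between -1.43 and -0.50 over 18 each. The alternatives refit the same arrays or subsets of them, so how often a gene passes is no independent support. No such count over all genes is given. The filter on all arrays drops Rgs1, so its 17 alternatives leave out the setting that requires signal in every KO liver. With these limits, the unadjusted p was below 0.05 in all 17 alternatives for Rgs1, all 18 for Rgs10 and 11 of 18 for Rgs16. Their adjusted p ran from 0.00358 to 0.561, from 0.00737 to 0.662 and from 0.0349 to 0.757, in each gene with the lowest value in the fit without WT liver 3 and no other alternative below the threshold of 0.05. With the mean over a gene's probes, 0.0569% of genes passed limma's test, and 0 RGS genes were among them. The number of arrays, 3 per group, limits the precision of these values.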

How the data were processed

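Agilent Feature Extraction 10.7.3.1 made the scanner tables, per the file headers. In these deposited tables the processed intensity of a spot is used. The authors' matrix gives log2 values that differ from log2 of that intensity by 1 constant per array, whose choice stays unknown; its column medians were 4.32, 4.44 and 4.52 for KO and 4.41, 4.17 and 4.70 for WT.

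From the processed intensity of 59305 non-control spots, log2 values were taken and the array's 75th percentile subtracted. Control and outlier spots were left out and a probe's spots averaged. Probes above background on at least 3 arrays were kept (23132). Those above background numbered 20953 to 22585 on KO arrays and 22951 to 28752 on WT arrays; none was saturated. RefSeq GRCm38.p6 named 26762 probes by unversioned accession and 28919 were unnamed; the array was designed on an older build, so only names and gene order were used, besides the upstream sequences. Where several probes of a gene were kept, the one with the highest mean level represents it; genes with none were fitted over all probes.

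KO minus WT was fitted with limma 3.58.1 in R 4.3.3 (two-sided, Benjamini-Hochberg, threshold 0.05) and tested on simulated data. All 10 genes are named; from other lists, genes past an unadjusted p below 0.05 and a few chosen after their values were seen. The members and lists were chosen with earlier results of these data known. Alternatives covered scaling, background correction, filters, probe averaging, pairing and left-out arrays. A result for 1 lymphocyte marker is not reported here. The replicate numbers of the titles do not pair the livers.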

Additional observations from a re-analysis of the deposited data

How the results depend on the processing

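The replicate numbers did not pair the livers: deviations from the group means correlated at -0.13, 0.0093 and -0.043 between same-numbered livers. With the replicate block limma called 0 probes, and 4 of 8 RGS genes were lower at an unadjusted p below 0.05, against 3 without it; of all genes 12.5% were, against 16.6% without it. Leaving out 1 liver gave 0 to 13123 called probes, 0 to 5 called RGS genes (Rgs1, Rgs2, Rgs4, Rgs10 and Rgs16 without WT liver 3, and 0 otherwise), 2 to 7 RGS genes lower at an unadjusted p below 0.05 (beside 4.50% of the array's genes without KO liver 2 and up to 54.8% without WT liver 3), 0 higher, and a median RGS difference of -1.44 to -0.82. Called probes numbered 1 after normexp, where 5 RGS genes and 21.1% of all genes were lower at the unadjusted level, 2 with the filter on all 6 arrays, which drops Rgs1 and Rgs4, and 7 genes with the mean over probes, with 0 RGS genes among them. With the 75th percentile taken over probes above background in all livers the median of all genes was -0.02, 59.1% of genes past an unadjusted p of 0.05 were lower (80.6% as reported), the median RGS difference was -0.61, and Rgs5 and Rgs19 changed sign, to 0.011 and 0.031. That share was 69.5% with the median of kept probes set to 0, 70.2% with the replicate block, 42.6% without a filter and 59.8% without WT livers 1 and 2. Rgs19 also changed sign without WT livers 1 and 2 (0.055) and with the mean over probes (0.19), and Rgs18 after normexp (-0.069). The cause of these changes was not tested. Signals near background limit Rgs1, Rgs4, Rgs14 and Rgs18.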
